A study of Mus musculus with 4 samples.

Results

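*Irg1* and 8 genes of enzymes that make, use or interconvert intermediates of the tricarboxylic acid (TCA) cycle, namely *Cs*, *Aco1*, *Idh1*, *Idh2*, *Idh3a*, *Ogdh*, *Fh1* and *Mdh2*, were followed in macrophages polarized in 4 ways. They were picked by name, with earlier results of these data known, and were represented by 12 of the 55681 non-control probes of the array and by 9 of the 23660 genes with a symbol. The cells were bone marrow-derived macrophages (BMDMs) of C57BL/6J mice of 10 weeks, differentiated for 6 days with L929 cell supernatant, a source of macrophage colony-stimulating factor, and then stimulated for 2 days. Wild-type BMDMs received IFN-γ at 20 ng per ml with LPS at 100 ng per ml (M1), or IL-4 at 50 ng per ml (M2). BMDMs of mice labelled p18 (2400001E08Rik) -/-, an older name of Lamtor1, received the same IL-4 (Lamtor1-deficient M2). Wild-type BMDMs received the same IL-4 together with Torin1, an inhibitor of the kinase mTOR, at 250 nM (Torin1-treated M2). The knockout mice of this study were *Lamtor1* flox/flox and heterozygous for *LysM-Cre*, which deletes in myeloid cells. Their littermate controls were *Lamtor1* flox/flox without Cre, and the labels call the control cells of the arrays wild type. With a single array for each condition, differences could be set only against the spread of repeated spots. No p-value is given, and how far cultures of one condition differ is unknown, which limits the precision of each value.

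The TCA cycle oxidizes acetyl units in the mitochondrion. Citrate synthase (*Cs*) joins them to oxaloacetate, aconitase turns citrate into isocitrate through *cis*-aconitate, and isocitrate dehydrogenase and 2-oxoglutarate dehydrogenase (*Ogdh*) release carbon dioxide, after which fumarase (*Fh1*) and malate dehydrogenase (*Mdh2*) close the circle. *Irg1*, now named *Acod1*, encodes the enzyme that removes a carboxyl group from *cis*-aconitate and so draws carbon out of the cycle as itaconate, a metabolite known from macrophages activated by LPS, where it restrains succinate dehydrogenase. *Aco1* and *Idh1* encode cytosolic enzymes, and cytosolic aconitase without its iron-sulfur cluster serves as an iron regulatory protein. *Idh2* encodes the mitochondrial isocitrate dehydrogenase that uses NADP, and *Idh3a* encodes a catalytic subunit of the one that uses NAD.

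Signals were background-subtracted by the scanner software and divided by the 75th percentile of each array, which was lowest in M1 (287) and higher in Torin1-treated M2 (470.0), Lamtor1-deficient M2 (536) and M2 (595). A normalized signal of 1 is thus the 75th percentile of that array. From probes spotted at least 8 times on each array, the technical SD of a log2 ratio lay between 0.0871 and 0.0968. This spread lies within arrays and leaves out the variation between cultures. The probe of *Lamtor1* had a normalized signal of 66.3 in M2 and 1.55 in Lamtor1-deficient M2, which is 2.34% of the M2 value. All 8 macrophage markers were well above background on all 4 arrays, and their summed normalized signal was 475 in M1, 799 in M2, 645 in Lamtor1-deficient M2 and 661 in Torin1-treated M2. These markers did not move alike. F4/80 (*Adgre1*) and *Fcgr1* were lower in both altered M2 conditions, with log2 ratios to M2 of −2.57 and −4.96 after Lamtor1 loss and of −2.81 and −4.61 with Torin1, and *Cd14* was lower after Lamtor1 loss (−1.86) and at 0.00 with Torin1. The other 5 stayed within 2-fold of M2 in both, of which *Cd68*, *Mertk* and *Lyz2* had ratios above 0, from 0.12 to 0.90, and *Csf1r* and *Itgam* had ratios from −0.81 to 0.15. The 3 neutrophil markers with a usable probe, of 5 listed, summed to 5.51 in M2 and to between 0.302 and 0.534 on the other arrays. The 5 fibroblast markers summed to 43.2 in M2 and 55.5 in Lamtor1-deficient M2, but to 15.3 in Torin1-treated M2 and 16.1 in M1, and all 5 were above background on every array. The 5 lymphocyte markers summed to between 1.98 and 4.06, with *Ms4a1* not well above background on any array. The fibroblast sum was thus lower in Torin1-treated M2 and in M1, where 5 and 6 of the 8 enzyme genes were 2-fold or more below M2, and its part in those values was not tested. Its members did not move alike, since in M1 the collagens *Col1a1*, *Col1a2* and *Col3a1* had log2 ratios of −3.81, −2.40 and −3.35, while *Dcn* was higher (2.55) and made up 9.27 of the sum of 16.1. In such bulk RNA, fewer cells of a type and less RNA per cell cannot be told apart.

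*Irg1* was lowest in M2 and higher in each of the other 3 conditions. Its probe (A_51_P123625, chr14:103455171-103455231, plus strand, mm9) was spotted 10 times on every array. The normalized signal was 3.65 in M2 (within-array SD 0.0550 over 10 spots), 18.6 in Lamtor1-deficient M2 (SD 0.541), 19.6 in Torin1-treated M2 (SD 0.851) and 275 in M1 (SD 16.4). No spots of M2 overlapped those of another array, since they ran from 3.57 to 3.73, against 17.6 to 19.6 in Lamtor1-deficient M2, 17.8 to 20.7 in Torin1-treated M2 and 231 to 288 in M1. The spots of an array are repeats with the same RNA, so these gaps do not measure variation between cultures. By the mean of the spots, *Irg1* was 5.09-fold higher after Lamtor1 loss (log2 ratio 2.35), 5.38-fold higher with Torin1 (log2 ratio 2.43) and 75.5-fold higher in M1 (log2 ratio 6.24). The spots of Lamtor1-deficient M2 and Torin1-treated M2 overlapped. Their log2 ratio of −0.08 was smaller than 2 technical SDs and took either sign under other scalings, from −0.32 to 0.23. The signal of *Irg1* was 6.74% of that of M1 in Lamtor1-deficient M2 and 7.13% in Torin1-treated M2, against 1.32% in M2. These values depended on the scaling of the M1 array, and with the arrays shifted to their medians the shares were 12.5%, 10.6% and 2.34%, and *Irg1* was 42.7-fold higher in M1 than in M2.

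**Figure D1:**
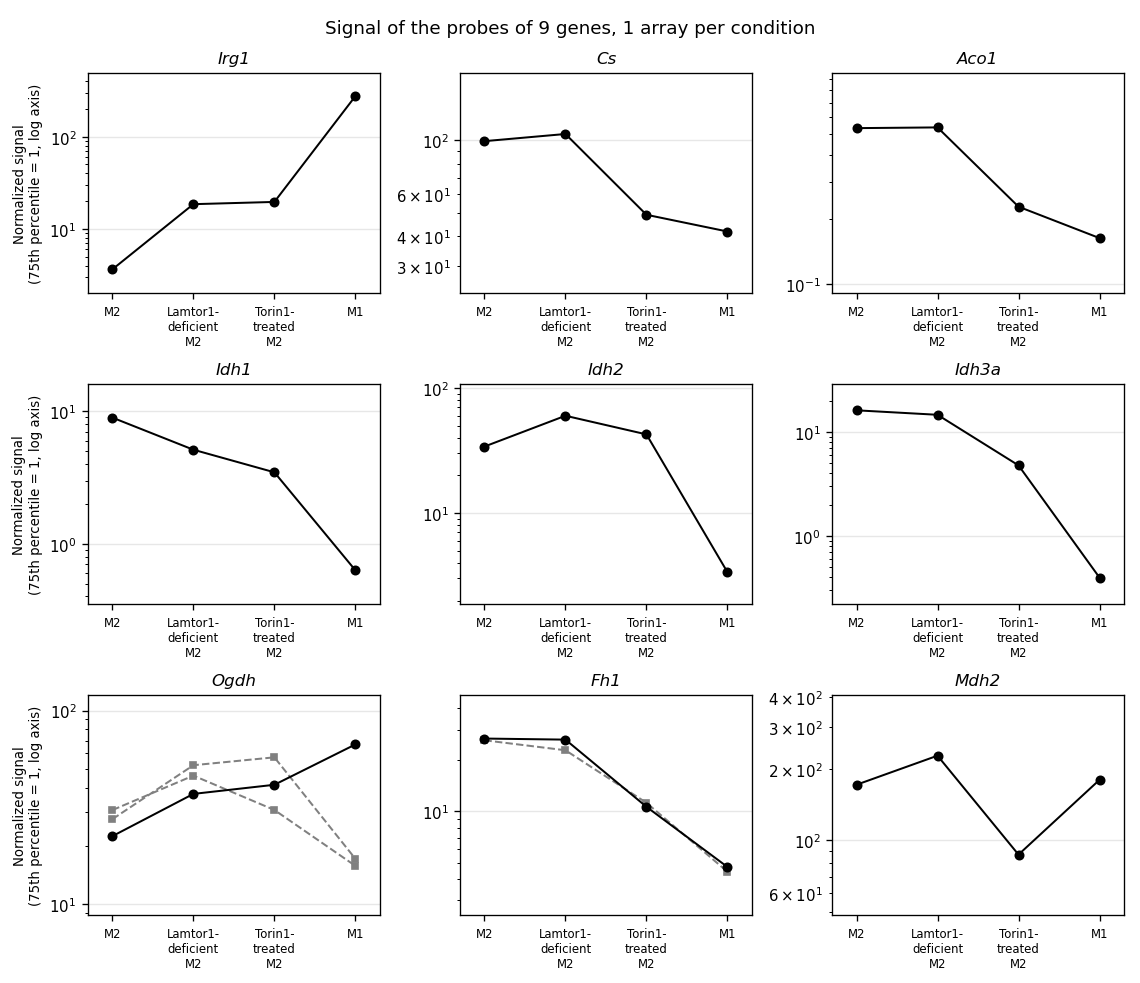
Normalized signal (log axis, 75th percentile of the array set to 1) of each of the 9 genes on the 4 arrays, 1 array per condition. Black circles are the brightest probe of a gene, grey squares its other probes, and lines join the values of one probe. *Irg1* is lowest in M2 and highest in M1, the 3 probes of *Ogdh* part in M1, and *Cs*, *Aco1*, *Idh3a* and *Fh1* lie lower with Torin1 and in M1 than in M2 and Lamtor1-deficient M2.

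The sequence before the annotated start of *Irg1* is set beside those of *Cs* and *Fh1*, as examples of a gene that was higher in every condition compared with M2 and of enzyme genes that were lower with Torin1 and in M1. RefSeq windows of the GRCm38.p6 assembly were found for 8 of the 9 genes, not for *Idh3a*, and the 250 bases before the start were read. Of 6 motifs searched on both strands, the 3 that matched in the windows of *Irg1*, *Cs* and *Fh1* were the TATA box with the letters TATAAA, the CCAAT box and the GC box with the letters GGGCGG. Capitals mark matches on either strand, 5′ to 3′ in the direction of the gene, and no match overlapped another. The *Irg1* window lies at chr14:103046762-103047011 (plus strand), that of *Cs* at chr10:128337477-128337726 (plus strand) and that of *Fh1* at chr1:175625636-175625885 (minus strand).
Irg1: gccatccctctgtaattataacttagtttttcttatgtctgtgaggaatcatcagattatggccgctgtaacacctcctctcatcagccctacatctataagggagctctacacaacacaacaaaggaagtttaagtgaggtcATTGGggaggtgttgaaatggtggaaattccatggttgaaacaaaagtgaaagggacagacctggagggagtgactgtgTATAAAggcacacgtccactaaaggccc
Cs: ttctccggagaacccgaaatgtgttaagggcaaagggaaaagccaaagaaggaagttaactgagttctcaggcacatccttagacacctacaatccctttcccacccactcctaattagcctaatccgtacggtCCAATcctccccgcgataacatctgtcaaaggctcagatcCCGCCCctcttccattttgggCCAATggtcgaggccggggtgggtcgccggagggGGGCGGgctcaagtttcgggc
Fh1: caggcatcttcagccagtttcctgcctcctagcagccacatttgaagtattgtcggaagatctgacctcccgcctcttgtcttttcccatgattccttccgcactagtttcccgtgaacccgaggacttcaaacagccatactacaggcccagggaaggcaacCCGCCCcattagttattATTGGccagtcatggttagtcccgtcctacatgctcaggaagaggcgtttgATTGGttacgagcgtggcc
The *Irg1* window held TATAAA, beginning 28 bases before the start, and CCAAT once, on the opposite strand. It was the only one of the windows of these 8 genes, 14 in all because *Idh1* had 2 and *Ogdh* 6, with TATAAA, which 12.4% of all 32851 windows held. It was also the poorest in CpG, with 2 CpG dinucleotides and 44.4% G or C, whereas the windows of the other 7 genes held between 9 and 35 CpG, and the median of all windows was 6 CpG and 52.4% G or C. The GC box matched in a window of each of the other 7 genes but not in that of *Irg1*, and 32.7% of all windows held it. Not every window of *Ogdh* matched, and *Idh1* and *Ogdh* had more windows in which a match could fall. Counts by gene are therefore not comparable with shares of windows. CCAAT, held by 33.9% of all windows, matched in those of *Irg1*, *Cs*, *Idh1*, *Idh2*, *Ogdh* and *Fh1*. The STAT motif TTCNNNGAA and the interferon-response motif GAAANNGAA (7.02% and 7.13% of all windows) matched in none of them, and the NF-κB consensus (7.25%) matched in windows of *Idh2* and *Ogdh*. These matches describe letters in the windows and are not binding sites.

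*Cs*, the enzyme that commits acetyl units to the cycle, had a normalized signal of 99.3 in M2, 106 in Lamtor1-deficient M2, 49.1 in Torin1-treated M2 and 41.8 in M1 (probe A_52_P182659, chr10:127799428-127799487, plus strand, mm9). The first 2 values differed by less than 2 technical SDs, and the others were 2.02-fold (Torin1) and 2.37-fold (M1) below M2. With Torin1, *Cs* thus lay at the 2-fold line, and quantile normalization put it just short of it (log2 ratio −0.99). *Aco1* gave 0.533 in M2, 0.537 in Lamtor1-deficient M2, 0.229 in Torin1-treated M2 and 0.164 in M1 (A_55_P2085880, chr4:40145780-40145839, plus strand). It followed the order of *Cs*, again with M2 and Lamtor1-deficient M2 closer than 2 technical SDs. Its log2 ratios were 0.01 after Lamtor1 loss, −1.22 with Torin1 and −1.70 in M1. This probe was well above background on every array but under the 75th percentile on all of them, and with a normexp background correction its ratios moved to −0.81 for Torin1 and −0.76 for M1, under the 2-fold line.

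The isocitrate dehydrogenases differed among themselves. *Idh1* gave 8.96 in M2, 5.13 in Lamtor1-deficient M2, 3.46 in Torin1-treated M2 and 0.631 in M1 (A_51_P132978, chr1:65206035-65206094, minus strand), and all 4 values were further apart than 2 technical SDs. It was 1.75-fold below M2 after Lamtor1 loss, the lowest log2 ratio of the 9 genes in that comparison (−0.81), 2.59-fold below with Torin1 and 14.2-fold below in M1. *Idh2*, a mitochondrial source of NADPH, gave 34.0 in M2, 59.9 in Lamtor1-deficient M2, 42.5 in Torin1-treated M2 and 3.37 in M1 (A_55_P2118684, chr7:87239736-87239795, minus strand). It was thus 1.76-fold above M2 after Lamtor1 loss and 1.25-fold above with Torin1, while it was 10.1-fold below in M1. *Idh3a*, of the NAD-dependent enzyme of the cycle, gave 16.2 in M2, 14.7 in Lamtor1-deficient M2, 4.79 in Torin1-treated M2 and 0.398 in M1 (A_51_P268559, chr9:54451368-54451427, plus strand). It had the lowest log2 ratio of the 9 genes both with Torin1 (−1.76) and in M1 (−5.35, or 40.8-fold below M2), and its M2 and Lamtor1-deficient M2 values were closer than 2 technical SDs. With other processing, the M1 ratio of *Idh3a* lay between −6.17 and −4.73.

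*Ogdh*, a subunit of the dehydrogenase complex that follows, was the gene whose probes disagreed. The brightest probe (A_55_P2006277, at base 6427 of its transcript, chr11:6258910-6258969, plus strand) gave 22.5 in M2, 37.1 in Lamtor1-deficient M2, 41.4 in Torin1-treated M2 and 66.8 in M1, and thus a log2 ratio of 1.57 for M1. The other 2 probes, at bases 4028 (A_55_P2006281) and 4100 (A_55_P2006280), were lower in M1 than in M2, at 17.2 against 27.5 and 15.8 against 30.6, which are log2 ratios of −0.68 and −0.96. The direction of *Ogdh* in M1 therefore depended on the probe. The probe called brightest over the 4 arrays was so only through its M1 value, since it was the dimmest of the 3 in M2 and in Lamtor1-deficient M2, so that the value it gave in M1 had a part in its choice. No probe of another gene shared a run of 20 bases with any of the 3. After Lamtor1 loss all 3 probes were above M2, with log2 ratios of 0.59, 0.72 and 0.93, and with Torin1 they gave 0.00, 0.88 and 1.06.

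*Fh1*, which hydrates fumarate to malate, gave 26.7 in M2, 26.3 in Lamtor1-deficient M2, 10.6 in Torin1-treated M2 and 4.71 in M1 with its brighter probe (A_55_P2074718, chr1:177531530-177531589, minus strand). Its other probe (A_51_P359333), whose mm9 position spans 2431 bases, gave 26.0, 22.8, 11.2 and 4.42 in the same order. Both probes of *Fh1* placed Torin1-treated M2 and M1 more than 2-fold below M2, with log2 ratios of −1.33 and −1.22 for Torin1 and of −2.50 and −2.56 for M1. *Mdh2*, which regenerates oxaloacetate, gave 171 in M2, 227 in Lamtor1-deficient M2, 87.1 in Torin1-treated M2 and 180 in M1 (A_51_P384879, chr5:136266157-136266216, plus strand). It was the one gene of the 9 whose M1 and M2 values were closer than 2 technical SDs, and its lowest value was that with Torin1, 1.97-fold below M2, a log2 ratio of −0.98 just short of the 2-fold line. A shift of the arrays to their medians took the M1 ratio of *Mdh2* to −0.75 and its Torin1 ratio to −1.22.

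**Figure D2:**
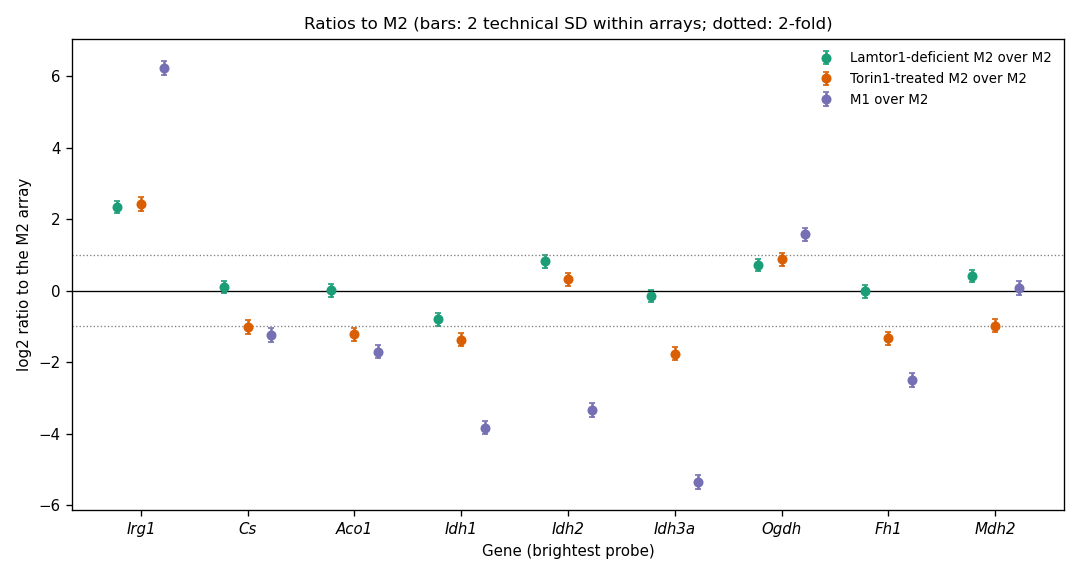
Log2 ratio of the brightest probe of each gene to the M2 array, for Lamtor1-deficient M2, Torin1-treated M2 and M1, 1 array each. Bars are 2 technical SDs within arrays, not variation between cultures, and dotted lines mark 2-fold. *Irg1* lies above 2 in all 3 comparisons, and after Lamtor1 loss the other 8 genes lie between −0.81 and 0.82.

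The loss of Lamtor1 was compared with wild-type M2 to see which genes of IL-4-stimulated macrophages depend on it. Of the 9 genes, 1 (*Irg1*) was 2-fold or more higher and 0 were lower, where 10.5% of the 15566 genes tested were higher and 10.5% lower. A gene was tested where its brightest probe was well above background on at least 1 of the 2 arrays, which held for all 9 genes in every comparison. The median log2 ratio of the 9 genes was 0.10, against 0.08 for all genes tested, and that of the 8 genes other than *Irg1* was 0.06. Treatment with Torin1 addressed the part of mTOR in the same cells. With Torin1, 1 gene (*Irg1*) was higher and 5 were lower (*Cs*, *Aco1*, *Idh1*, *Idh3a* and *Fh1*), where 15.1% of 15958 genes were higher and 15.2% lower, and the medians were −1.02 for the 9 genes and 0.05 for all genes. In M1, 2 genes were higher (*Irg1* and, by its brightest probe alone, *Ogdh*) and 6 were lower (*Cs*, *Aco1*, *Idh1*, *Idh2*, *Idh3a* and *Fh1*), where 28.5% of 16070 genes were higher and 27.7% lower, and the medians were −1.70 and 0.09. All 3 comparisons share the M2 array. When the arrays were shifted to their medians, the median ratio of all genes moved by −0.25 for Torin1 and by −0.82 for M1. The higher genes then made up 35.2% of all changed genes with Torin1 and 25.6% in M1, instead of 49.9% and 50.7%. Measured from the median of all genes, which no such shift alters, the medians of the 9 genes were 0.02 after Lamtor1 loss, −1.07 with Torin1 and −1.79 in M1.

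Lamtor1-deficient M2 and Torin1-treated M2 were also set directly against each other, without the M2 array. The signals of *Cs*, *Aco1*, *Idh3a*, *Fh1* and *Mdh2* were 2-fold or more higher in Lamtor1-deficient M2, by 2.17-fold, 2.34-fold, 3.07-fold, 2.48-fold and 2.61-fold respectively, and 0 of the 9 were 2-fold or more lower. Of 15938 genes tested, 14.9% were 2-fold or more higher in Lamtor1-deficient M2 and 13.7% lower. *Idh1* and *Idh2* were higher by 1.48-fold and 1.41-fold. With the 75th percentile scaling, *Irg1* and the brightest probe of *Ogdh* differed by less than 2 technical SDs, while another probe of *Ogdh* (A_55_P2006280) gave 46.1 in Lamtor1-deficient M2 and 30.7 in Torin1-treated M2. *Irg1* was further apart than 2 technical SDs, in opposite directions, under median scaling (log2 ratio 0.23) and quantile normalization (−0.32). *Cs* fell short of 2-fold under quantile normalization (0.93) and *Aco1* under the normexp correction (0.81), which left 4 genes each time. The median of the 9 log2 ratios was 1.12, against 0.06 for all genes.

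**Figure D3:**
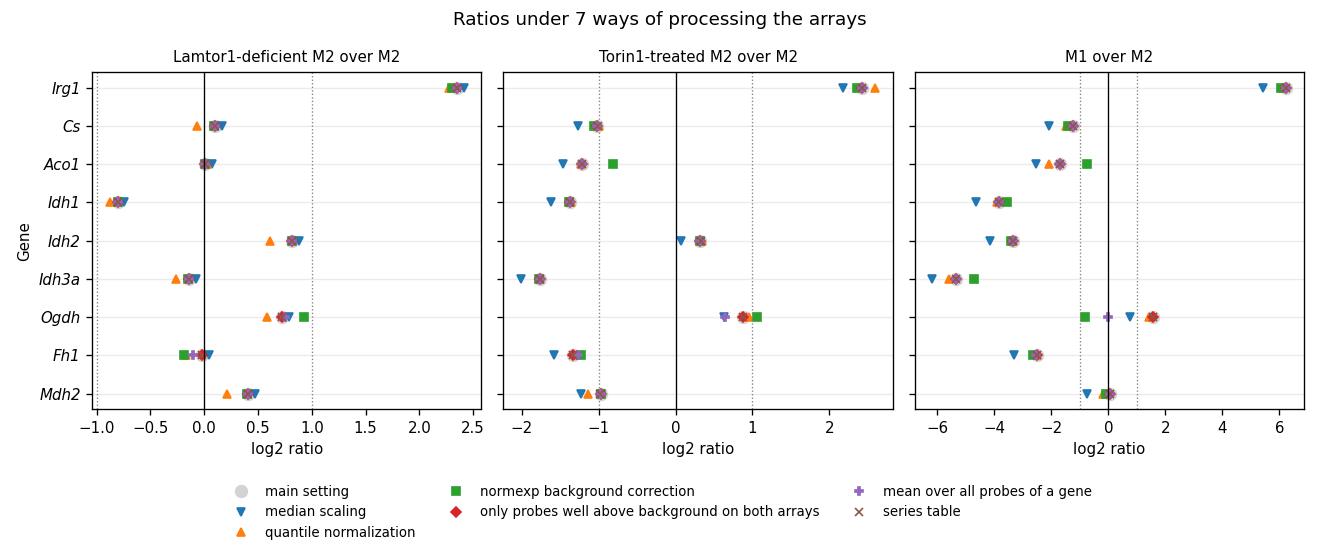
Log2 ratio to the M2 array of the 9 genes under 7 ways of processing the same 4 arrays, with the main setting as a pale disc and dotted lines at 2-fold. *Irg1* keeps a ratio above 2 in all panels, from 2.18 to 6.24, *Ogdh* runs from −0.81 to 1.57 in M1, and median scaling moves the M1 panel to lower values.

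The other genes of the pathway were 43 genes in 5 lists, of which 42 were tested and 1 (*Me3*) was not well above background on any array. In these lists, 3 genes were higher and 0 lower after Lamtor1 loss (median log2 ratio 0.24), 2 were higher and 10 lower with Torin1 (median −0.44), and 0 were higher and 20 lower in M1 (median −0.92), or 31 lower with the arrays shifted to their medians. These counts stand against the same shares of all genes as above, except for the 31. With the arrays shifted to their medians, 7092 of 16070 genes were lower in M1.

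Of the 13 other TCA cycle enzymes, 0 passed 2-fold after Lamtor1 loss, with log2 ratios from −0.27 to 0.87. With Torin1, 4 were lower, namely *Suclg1* of succinyl-CoA ligase (log2 ratio −1.08), the succinate dehydrogenase subunits *Sdhb* (−1.01) and *Sdhc* (−1.41), and cytosolic malate dehydrogenase *Mdh1* (−1.12). *Sdhc* gave 39.2 in M2, 37.8 in Lamtor1-deficient M2, 14.7 in Torin1-treated M2 and 18.8 in M1. In M1, 6 were lower, and these were the regulatory subunits *Idh3b* (−1.20) and *Idh3g* (−2.21) of the NAD-dependent isocitrate dehydrogenase, *Suclg1* (−1.19), *Suclg2*, *Sdha* (−1.27) and *Sdhc* (−1.06). *Suclg2* was not well above background in M1, which makes it at least 6.78-fold lower there. *Idh3a*, *Idh3b* and *Idh3g* were thus all lower in M1, whereas with Torin1 *Idh3a* was at −1.76, *Idh3g* at −0.56 and *Idh3b* at 0.07. The shared subunits *Dlst* and *Dld* of the 2-oxoglutarate dehydrogenase complex had ratios between −0.48 and 0.21 in the 3 comparisons, and passed 2-fold in M1 with the arrays shifted to their medians (−1.12 and −1.30).

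Of the 13 genes of pyruvate entry, 3 were higher after Lamtor1 loss. The mitochondrial pyruvate carrier *Mpc1* (log2 ratio 1.35) gave 37.4 in M2, 95.3 in Lamtor1-deficient M2, 37.0 in Torin1-treated M2 and 73.6 in M1. *Pdhx*, which binds a component of the pyruvate dehydrogenase complex, was higher after Lamtor1 loss (1.24) and lower in M1 (−1.84). With Torin1 it was higher (1.08), but short of 2-fold with the arrays shifted to their medians (0.84). Pyruvate carboxylase *Pcx*, which makes oxaloacetate, was higher after Lamtor1 loss (1.23) and lower in M1 (−2.43), and its Torin1 ratio was 0.05. The kinases that switch pyruvate dehydrogenase off moved apart with Torin1. *Pdk1* was lower (−2.54) and gave 3.10 in M2, 1.66 in Lamtor1-deficient M2, 0.535 in Torin1-treated M2 and 1.19 in M1. *Pdk3* was lower (−1.11), and *Pdk4* was higher (2.20), from 0.124 in M2 to 0.571. In M1, 7 genes of this list were lower, namely *Pdha1* (−2.09), *Dlat* (−3.15), *Pdhx*, *Pcx*, *Pdk1* (−1.39), *Pdk2* (−2.06) and the phosphatase *Pdp2* (−4.02). For *Pdhb*, another subunit of the complex, the probes disagreed. Their log2 ratios ran from −0.66 to 0.52 after Lamtor1 loss, from −0.57 to 0.48 with Torin1 and from 0.97, by the brightest, to 3.86 in M1.

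Among the 10 tested genes of citrate export and of the malate and aspartate shuttles, 0 passed 2-fold after Lamtor1 loss. With Torin1, the dicarboxylate carrier *Slc25a10* (log2 ratio −1.42), the aspartate and glutamate carrier *Slc25a13* (−1.62) and the cytosolic aspartate aminotransferase *Got1* (−1.05) were lower. In M1, *Slc25a13* (−4.38) and ATP-citrate lyase *Acly* (−1.37) were lower, although another probe of *Acly* gave 0.18. The citrate carrier *Slc25a1* had ratios between −0.27 and 0.48 in the 3 comparisons, and −1.09 in M1 with the arrays shifted to their medians. All 4 genes of glutamine entry were lower in M1. The glutamine transporter *Slc1a5* (−6.10) gave 8.89 in M2 and 0.130 in M1, and its probe with the smaller difference gave −3.23. Glutamate dehydrogenase *Glud1* (−1.74, and −0.86 with another probe) and alanine aminotransferase *Gpt2* (−3.63) were lower as well. With Torin1, *Gpt2* (−1.49) was lower and *Glud1* was at −0.98, and after Lamtor1 loss the 4 genes lay between −0.77 and 0.44. Of the 2 genes placed in itaconate breakdown, *Auh* was lower in M1 (−1.83) by its brightest probe, while another of its probes gave 0.98, and *Clybl*, of citramalyl-CoA lyase, had ratios of −0.45 after Lamtor1 loss, −0.92 with Torin1 and −0.89 in M1. Another probe of *Clybl* gave −1.43 with Torin1, and with the arrays shifted to their medians the brightest probe passed 2-fold with Torin1 (−1.17) and in M1 (−1.71).

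**Figure D4:**
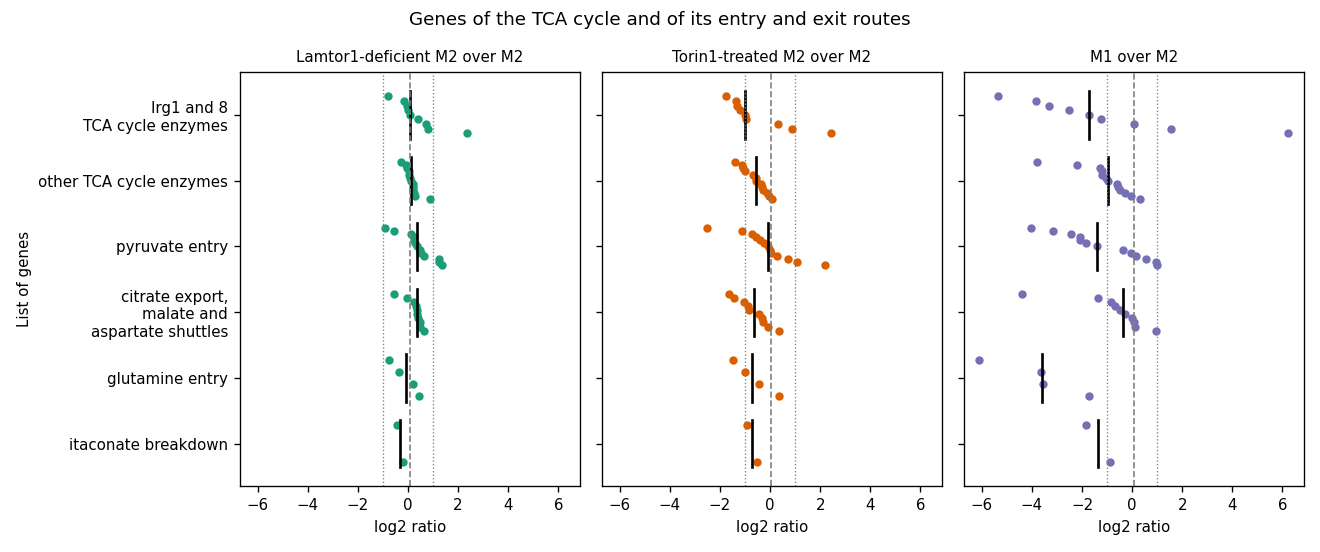
Log2 ratio to the M2 array of the brightest probe of each gene, by list, for the 3 comparisons. Each point is a gene, black bars are list medians, dashed lines the median of all genes tested and dotted lines 2-fold. In M1 the medians of all lists lie below that of all genes, with glutamine entry at −3.58, and after Lamtor1 loss the list medians lie between −0.33 and 0.36.

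Among 23660 genes, those whose 3 log2 ratios to M2 lay nearest to those of *Irg1*, by Euclidean distance over 4 arrays, were *Pdpn* (distance 0.48), *Lhx2* (0.70) and *Rhov* (0.96). *Pdpn*, of the membrane glycoprotein podoplanin, gave 2.84 in M2, 15.1 in Lamtor1-deficient M2, 20.0 in Torin1-treated M2 and 177 in M1. All 3 probes were well above background on the 4 arrays.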

How the data were processed

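RNA of 4 cultures was hybridized to Agilent one-colour whole mouse genome arrays, 1 per condition. The authors deposited scanner files with the intensity of each spot, background-subtracted by Feature Extraction and not normalized between arrays. The labels and methods name version 10.5.1.1 of this software, the file headers 10.7.3.1. The series table repeats these signals to within 0.497%. Following the study's methods, signals under 1.0 were raised to 1.0 and each array was divided by its 75th percentile. Control spots and spots flagged as outliers were left out by the flags deposited in the files, and repeated spots were averaged. A symbol other than an accession, probe identifier or lincRNA was carried by 31397 of the 55681 probes. Each gene was represented by its brightest probe over the arrays. Probe positions are those of the array annotation (mm9), and sequences before gene starts are RefSeq's (GRCm38.p6). No test was run, since conditions had 1 array each. A gene counted as changed at 2-fold or more. The text names all 9 genes, every listed pathway gene past 2-fold and the 3 genes most like *Irg1*, and *Dlst*, *Dld*, *Pdhb*, *Slc25a1* and *Clybl* were added to these on seeing their values. Some listed genes are counted but not reported singly here. The 9 genes and the lists were chosen with earlier results of these data known. The procedure was run on simulated arrays, where 200 of 200 planted changes in each comparison were recovered. These changes were set larger than 2-fold, in bright probes only and with noise of the size seen within arrays. Their recovery was therefore fixed by these settings, and it says nothing of calls near 2-fold, on dim probes or between cultures. Software was limma 3.58.1 (R 4.3.3) for normexp, and NumPy 2.4.6, pandas 2.3.3 and matplotlib 3.10.9 (Python 3.11.15) for the rest.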

Additional observations from a re-analysis of the deposited data

How the results depend on the processing

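The ratios and counts of the 9 genes and of the listed pathway genes, the counts over all genes in the 3 comparisons with M2 and the share of the M1 signal of *Irg1* were recomputed under 6 alternatives, namely a shift of each array to its median, quantile normalization, a normexp background correction with an offset of 50, only probes well above background on both arrays, the mean over all probes of a gene, and the series table. For the direct comparison of Lamtor1-deficient M2 with Torin1-treated M2, the counts of pathway genes and the share of the M1 signal, they were chosen after seeing the data. Marker sums, the share of *Lamtor1* left and the distances to *Irg1* were not recomputed. *Irg1* stayed above M2 in all of them, and the counts of changed genes after Lamtor1 loss were 1 higher and 0 lower in each. Under median scaling the log2 ratio of *Irg1* was 2.18 with Torin1 and 5.42 in M1, and the median of the 9 genes was −1.26 with Torin1 and −2.52 in M1. Under quantile normalization, *Irg1* was at 2.59 with Torin1, and the medians were −1.14 with Torin1 and −2.09 in M1. With normexp, *Irg1* was at 6.06 and the median at −1.40 in M1, and *Ogdh* became 1 of 2 higher genes with Torin1. The higher genes in M1 numbered 1 instead of 2 under median scaling, normexp and the mean over probes, each time because *Ogdh* was no longer 2-fold higher. The lower genes with Torin1 numbered 6 under median scaling and 4 with normexp instead of 5, and those in M1 numbered 5 with normexp instead of 6. Of the pathway genes, median scaling left 1 instead of 2 higher with Torin1, without *Pdhx*, and gave 14 instead of 10 lower with Torin1, with *Acly*, *Me2*, *Glud1* and *Clybl* added, and 31 instead of 20 lower in M1, where quantile normalization and the mean over probes gave 1 higher instead of 0. *Ogdh* in M1 turned to −0.81 with normexp, where another of its probes was the brightest, and to −0.021 with the mean over probes. Counts over all genes fell with normexp for Lamtor1 loss, to 990 lower from 1640, and for Torin1, to 1411 higher from 2413. The filter on dim probes left 1101 lower genes after Lamtor1 loss, and median scaling gave 2445 higher and 7092 lower genes in M1 instead of 4584 and 4457. For Torin1, median scaling gave 3197 lower genes instead of 2427. With the filter on dim probes and with the series table, all 33 ratios of single genes among the 9, beside those of *Irg1* to M2, moved by less than the technical SD. No paired analysis was possible because each condition has 1 array. Signal over background limits *Aco1*, whose signal in M1 before scaling was 47.0. It also limits the M1 ratios of listed genes such as *Slc1a5* (37.1), *Pdp2* (41.8), *Gpt2* (54.5), *Pcx* (58.8) and *Dlat* (64.9). The dimmest probe called well above background had a signal between 15.7 and 21.6, and of 18.8 in M1.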
